A study of Gallus gallus with 12 samples.

Results

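ALDH1A3 is the gene of an aldehyde dehydrogenase that makes retinoic acid, and its transcript was followed here through 12 chicken otocysts. It is followed through the 1 transcript paired with its symbol, ENSGALT00000078438.3 of gene ENSGALG00000033365. That transcript is 4243 bases long and is 1 of 28756 transcripts in each table. Only 811 of these were paired with a symbol, so further ALDH1A3 transcripts may be among the rest. The gene was picked because its right to left ratio differed between DNBCAT and mCherry embryos, so its own levels and ratios are given below as a description, with no test. In the RefSeq annotation of assembly GRCg7b, which is not the assembly of the files, its nearest named neighbours are ASB7 and LRRK1.

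Retinoic acid is a small signalling molecule made from vitamin A. Retinol is first oxidised to retinaldehyde, and aldehyde dehydrogenases of the ALDH1A family then turn retinaldehyde into retinoic acid, which binds nuclear receptors and changes transcription. In the embryo, the local balance between synthesis by ALDH1A enzymes and breakdown by CYP26 enzymes sets where retinoic acid acts, and an excess or a lack of it disturbs the patterning of the inner ear.

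The 12 otocysts came from 6 White Leghorn embryos, an outbred strain, and the left and right otocyst of every embryo were sequenced as separate libraries. In the Wnt LOF EP 24 h dataset (embryos 50, 51 and 52) the right otic cup was electroporated at embryonic day 2 with DNBCAT, a truncated Xenopus β-catenin that inhibits Wnt signalling, expressed together with mCherry. In the Control EP dataset (embryos 60, 61 and 62) the right otic cup received a plasmid for mCherry, a red fluorescent protein, alone. Otocysts were collected 24 h later, at embryonic day 3, and the left otocyst of each embryo was not transfected. Electroporation reaches only part of the cells of the right otocyst, embryos with strong and wide fluorescence were picked for sequencing, and the mesenchyme around the otocyst was cleaned off by dissection. Since the RNA is from whole otocysts, fewer cells with the transcript and less transcript per cell cannot be told apart.

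Total estimated counts lay between 13157404 and 16097100 per otocyst (median 14801238). The right otocyst of DNBCAT embryo 51 stood apart from the other 11: its 50 most abundant transcripts held 39.4% of all TPM, against 17.3% to 20.7% in the others, and its TMM factor, which corrects the library size for such a skew, was 0.772 against 0.981 to 1.07. For ALDH1A3, MEIS1, BMP4, CDH1 and the genes most like ALDH1A3, values without this embryo or its right otocyst are also given. CTNNB1, the chicken β-catenin gene, had a log2 fold change of -0.12 (SE 0.12), right against left, in DNBCAT embryos, but this transcript is no check of the electroporated construct, which is of another species.

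ALDH1A3 was lower in the right, DNBCAT-transfected otocyst than in the left otocyst of each DNBCAT embryo. The right otocysts of embryos 50, 51 and 52 held 1038, 235 and 396 estimated counts of ALDH1A3, and their left otocysts held 2654, 1389 and 1556. The highest right value was under the lowest left value, so the sides did not overlap. Those are counts before scaling, and ALDH1A3 did not overlap after scaling to library size either, as given below. Of all transcripts tested in these embryos, after such scaling, 16.5% were lower on the right in each of the 3 embryos. Without overlap between the sides in that direction were 5%. The right otocysts of mCherry embryos 60, 61 and 62 held 4130, 3437 and 2351 estimated counts of ALDH1A3, and their left otocysts held 3838, 4254 and 2414. There the sides overlapped, with the right value above the left one in embryo 60 and below it in the other two embryos. Beside the gaps of the DNBCAT embryos, the Poisson interval of a read count is narrow: the 95% interval of the lowest ALDH1A3 count, 235, ran from 206 to 267. In mCherry embryo 62 the intervals of the sides overlapped, from 2257 to 2448 on the right and from 2319 to 2512 on the left. These intervals cover the counting error of reads only. The libraries were amplified by PCR and carry no molecular identifiers, so the sampling error of the RNA molecules may be larger and was not measured. In 6 of the 12 otocysts the ALDH1A3 estimate was a whole number within 0.01, which is how Kallisto reports a transcript that shares hardly any reads with another. In the other otocysts it was not whole, so some reads may have been shared with another transcript there.

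As CPM, which scales the counts to the size of the library, here corrected by TMM, ALDH1A3 reached 69.8, 20.0 and 26.3 in the right otocysts of DNBCAT embryos 50, 51 and 52, and 173, 108 and 101 in their left otocysts. It reached 268, 229 and 148 CPM in the right otocysts of mCherry embryos 60, 61 and 62, and 264, 306 and 158 CPM in their left otocysts. All 3 right DNBCAT otocysts were therefore under every other otocyst of the series. The group means were 38.7 ± 27.2 CPM in right DNBCAT otocysts, 128 ± 39.8 CPM in left DNBCAT otocysts, 215 ± 60.8 CPM in right mCherry otocysts and 243 ± 76.2 CPM in left mCherry otocysts (SD, n = 3 each). In the order of these means, right DNBCAT otocysts did not overlap their neighbour, left DNBCAT otocysts. Left DNBCAT and right mCherry otocysts overlapped, as 173 CPM in embryo 50 lies above 148 CPM in embryo 62, and right and left mCherry otocysts differed by less than their SD.

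**Figure D1:**
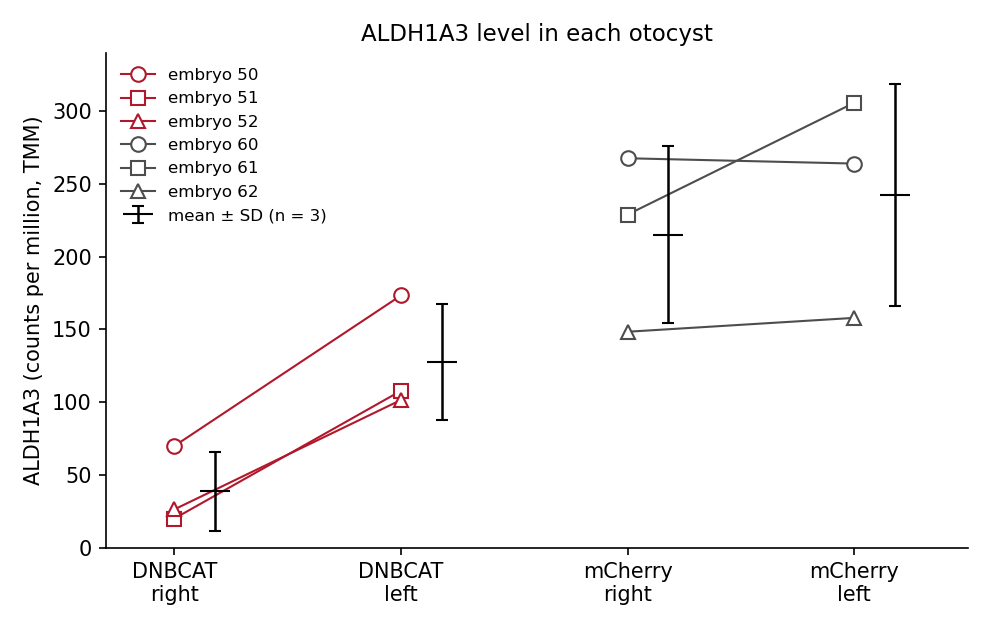
ALDH1A3 in CPM after TMM scaling (linear vertical axis from 0) in each otocyst, with the right and left otocyst of 1 embryo joined by a line, DNBCAT embryos in red and mCherry embryos in grey. Black bars are the mean ± SD of 3 otocysts; the right DNBCAT otocysts sit between 20.0 and 69.8 CPM, under the left DNBCAT otocysts at 101 to 173 CPM, and the right and left mCherry otocysts overlap.

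The untransfected left otocysts had less ALDH1A3 on average in DNBCAT embryos than in mCherry embryos, with overlapping ranges. Left otocysts had 101 to 173 CPM of ALDH1A3 in DNBCAT embryos and 158 to 306 CPM in mCherry embryos, and the ranges overlapped by 15.4 CPM, in the values of embryos 50 and 62. The left otocysts of a dataset share no embryo with those of the other, and the dataset, the embryos and any difference in collection cannot be told apart here. Over all transcripts tested, 3.95% had all 3 left DNBCAT otocysts under all 3 left mCherry otocysts, which ALDH1A3 did not. Between the transfected sides, 5.52% of transcripts had all 3 right DNBCAT otocysts under all 3 right mCherry otocysts, and ALDH1A3 was one of them.

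On the TPM scale, which divides by transcript length, ALDH1A3 was a moderately abundant to abundant transcript. It had 24.4, 3.96 and 10.0 TPM in the right otocysts of DNBCAT embryos 50, 51 and 52, and 65.2, 35.7 and 39.1 TPM in their left otocysts. It had 109, 86.6 and 49.6 TPM in the right otocysts of mCherry embryos 60, 61 and 62, and 108, 118 and 55.5 TPM in their left otocysts. Among the transcripts detected in an otocyst, ALDH1A3 stood above 54.8% to 74.6% by TPM in right DNBCAT otocysts and above 80.2% to 87.5% in left DNBCAT otocysts. It stood above 85.5% to 92.4% in right mCherry otocysts and above 86.4% to 93.0% in left mCherry otocysts. The transcript was thus nearer the middle of the detected transcripts in every right DNBCAT otocyst than in any left or control otocyst.

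The ratio within each embryo shows the same pattern without the differences between embryos. The log2 ratio of right over left CPM of ALDH1A3 was -1.31, -2.43 and -1.95 in DNBCAT embryos 50, 51 and 52, so that the right otocyst held 40.3%, 18.5% and 25.9% of the left level. The log2 ratio was 0.02, -0.42 and -0.09 in mCherry embryos 60, 61 and 62, with the right otocyst at 101%, 74.9% and 94.0% of the left level. The mean log2 ratio was -1.90 ± 0.56 in DNBCAT embryos and -0.16 ± 0.23 in mCherry embryos (SD, n = 3 each). The DNBCAT ratio nearest to 0 and the mCherry ratio farthest below it were 0.89 apart on the log2 scale. Over the transcripts counted in all 12 otocysts, 5.97% had all 3 DNBCAT ratios under all 3 mCherry ratios. The separation of ALDH1A3 is what it was picked for, so nothing is read from that share.

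Scaling moved the ratio of embryo 51 more than any other. There the log2 ratio of ALDH1A3 was -2.43 in CPM with TMM, -2.78 in CPM by library total and -3.17 in TPM. In embryo 50 the same scales gave -1.31, -1.37 and -1.42, and in embryo 52 they gave -1.95, -1.98 and -1.97. Embryo 51 is the one whose right library had the skewed composition described above, and the part of that skew in its ratio was not tested beyond these scales. The order of the DNBCAT embryos was the same on all 3 scales, with embryo 51 lowest and embryo 50 highest.

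**Figure D2:**
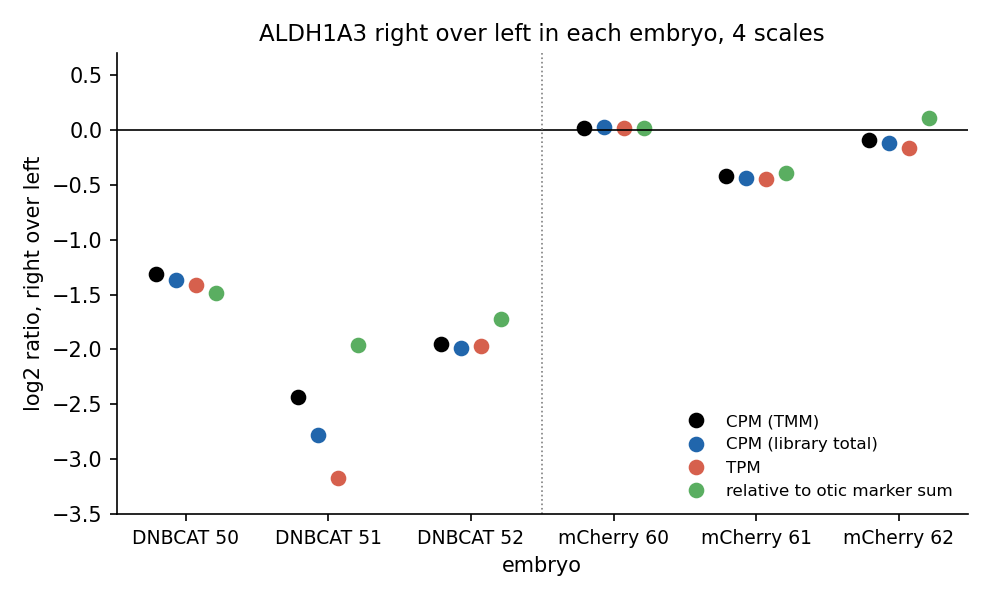
The log2 ratio of ALDH1A3, right over left, in each embryo (DNBCAT embryos left of the dotted line, mCherry embryos right of it), on 4 scales given by colour: CPM with TMM, CPM by library total, TPM, and ALDH1A3 relative to the summed CPM of 6 otic epithelium markers. Points stand for 1 embryo each; the DNBCAT embryos lie between -3.17 and -1.31 and the mCherry embryos between -0.45 and 0.11.

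A ratio to other genes of the same otocyst does not depend on the scaling of the library. Set against the summed CPM of 6 otic epithelium markers (SOHO-1, LMX1A, DLX5, TBX2, SOX10 and CDH1), ALDH1A3 stood at 5.66%, 2.82% and 2.48% in the right otocysts of DNBCAT embryos 50, 51 and 52, and at 15.8%, 10.96% and 8.21% in their left otocysts. In mCherry embryos 60, 61 and 62 it stood at 21.7%, 19.2% and 13.6% in the right otocysts and at 21.5%, 25.3% and 12.6% in the left ones. The log2 ratio of these values, right over left, was -1.48, -1.96 and -1.73 in the DNBCAT embryos and 0.01, -0.40 and 0.11 in the mCherry embryos. SOX10, the most abundant of the 6 otic markers in each otocyst at 292 to 691 CPM, is also in the neural crest and glia list used below. Set against the summed CPM of 6 mesenchyme markers instead, the log2 ratio of ALDH1A3 was -0.90, -2.84 and -2.48 in DNBCAT embryos 50, 51 and 52, and 0.12, -0.45 and -0.39 in mCherry embryos 60, 61 and 62. Embryo 51 was the lowest on both scales, and its distance from embryo 50 was larger against the mesenchyme markers than against the otic ones. Most of the higher mesenchyme sum on the right of embryo 51 was THY1, at 378 CPM against 149 CPM on the left. LUM had 286 CPM there against 264 CPM, and ENG, NT5E, COL1A2 and DCN did not rise.

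As ranges, the marker sums overlapped between sides, and within embryos they moved in both directions. The 6 otic markers summed to 1233, 708 and 1058 CPM in the right otocysts of DNBCAT embryos 50, 51 and 52. In their left otocysts they summed to 1095, 984 and 1236 CPM. The lowest sum was that of embryo 51 on the right. They summed to 1092 to 1233 CPM in right mCherry otocysts and to 1210 to 1256 CPM in left mCherry otocysts. Markers of mesenchyme (ENG, NT5E, THY1, COL1A2, LUM and DCN) were present in every library, at 567 to 891 CPM in right DNBCAT otocysts and 497 to 752 CPM in left DNBCAT otocysts. Their sums were 606 to 688 CPM in right mCherry otocysts and 558 to 652 CPM in left mCherry otocysts. The edgeR test called 0 of the 6 mesenchyme markers in either dataset, with 0 at an unadjusted p under 0.05 (6.2% of all transcripts in DNBCAT embryos and 3.75% in mCherry embryos). DESeq2 called 0 too. Of all transcripts it called 1.48% higher and 0.85% lower in DNBCAT embryos, and 0.223% and 0.202% in mCherry embryos. The part of the mesenchyme markers in the ALDH1A3 values was not tested.

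Fitted with edgeR's quasi-likelihood model over all transcripts, the log2 fold change of ALDH1A3, right against left, was -1.88 (SE 0.24) in DNBCAT embryos, which is 3.67-fold lower, and -0.16 (SE 0.10) in mCherry embryos. The difference between the datasets was -1.71 (SE 0.28). Without embryo 51 the DNBCAT value was -1.61 and the difference -1.45. Of the 19408 transcripts fitted in DNBCAT embryos, 552 had a lower log2 fold change than ALDH1A3. Among the 2841 transcripts with at least the mean CPM of ALDH1A3 over the 6 DNBCAT otocysts there was 1 such transcript, that of NOXO1, which encodes a subunit that organises NADPH oxidase and is needed for otoconia in the mouse. For the difference between the datasets, 881 of 19298 transcripts had a lower value than ALDH1A3. Among the 1383 transcripts with at least the mean CPM of ALDH1A3 over all 12 otocysts, NOXO1 was also the 1 with a lower difference. ALDH1A3 was picked for these contrasts and both cuts were set at its own level, so nothing is read from its place.

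Across all transcripts the number of calls depended on the tool. The edgeR test called 0 of 19408 transcripts in DNBCAT embryos at an adjusted p under 0.05 (Benjamini-Hochberg), with 673 higher and 531 lower at an unadjusted p under 0.05, while the Wald test of DESeq2 called 288 higher and 165 lower. In mCherry embryos edgeR called 0 of 19754, with 394 higher and 346 lower at an unadjusted p under 0.05, and DESeq2 called 44 higher and 40 lower. For the difference between the datasets, edgeR called 0 of 19298, with 415 higher and 427 lower at an unadjusted p under 0.05, and DESeq2 called 26 higher and 38 lower.

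Other genes of the retinoic acid pathway could be followed only in part, because few transcripts could be paired with a symbol. Of 32 listed genes for the uptake and oxidation of retinoids, the breakdown of retinoic acid, its receptors and its responsive genes, 6 were paired. They were CYP1B1, CREBBP, HOXA3, MEIS1, RARRES1 and BRINP2. None of 13 other aldehyde dehydrogenases was paired, so the levels of the other ALDH1A enzymes, the CYP26 enzymes and the retinoic acid receptors were not analysed here. In DNBCAT embryos 5 of the 6 genes could be tested. Of these, edgeR called 0 in either direction, where it called 0% of all transcripts. At an unadjusted p under 0.05 there were 0 (6.2% of all transcripts). DESeq2 called 0 as well (1.48% of all transcripts were called higher and 0.85% lower). In mCherry embryos all 6 could be tested and edgeR called 0. Of the 6, 1, HOXA3, had an unadjusted p under 0.05 (3.75% of all transcripts). DESeq2 called HOXA3 higher (0.223% of all transcripts).

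CYP1B1, a cytochrome that can oxidise retinol and retinaldehyde, had 36.7, 40.1 and 29.2 CPM in the right otocysts of DNBCAT embryos 50, 51 and 52, and 41.7, 30.6 and 19.6 CPM in their left otocysts. The sides overlapped, and the log2 fold change was 0.26 (SE 0.18, edgeR adjusted p = 0.731). In mCherry embryos CYP1B1 had 26.6, 28.8 and 32.5 CPM on the right and 34.1, 31.9 and 22.4 CPM on the left. The direction of this gene in DNBCAT embryos turned with the TPM scale, where its log2 fold change was -0.02. On that scale the median of all transcripts was itself shifted, to -0.23 with TPM + 1, against -0.02 in the counts.

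MEIS1, a homeobox gene that responds to retinoic acid in several embryonic tissues, was lower on the right in each DNBCAT embryo but did not pass the edgeR test. It had 72.2, 35.6 and 84.8 CPM in the right otocysts of DNBCAT embryos 50, 51 and 52, and 91.8, 91.2 and 106 CPM in their left otocysts. The right and left values did not overlap, as in 5% of all transcripts. The log2 fold change was -0.66 (SE 0.25, edgeR adjusted p = 0.718), and it was -0.33 without embryo 51. In mCherry embryos MEIS1 had 153, 99.5 and 57.4 CPM on the right and 143, 114 and 96.3 CPM on the left (log2 fold change -0.27, adjusted p = 0.960 by edgeR).

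RARRES1, named for its response to retinoic acid, had 23.3, 51.1 and 27.8 CPM in the right otocysts of DNBCAT embryos 50, 51 and 52, and 29.7, 37.3 and 27.9 CPM in their left otocysts, with no common direction (log2 fold change 0.04, edgeR adjusted p = 0.953). HOXA3, a homeobox gene of the hindbrain and pharyngeal arches that retinoic acid induces, was scarce. It had 197, 5.63 and 105 estimated counts in the right otocysts of mCherry embryos 60, 61 and 62, and 3, 1 and 0 in their left otocysts. DESeq2 called this difference (adjusted p = 2.22e-05, among 0.223% of all transcripts called higher) and edgeR did not (adjusted p = 0.960). In DNBCAT embryos HOXA3 had 0, 22 and 76 estimated counts on the right and 10, 8.38 and 2 on the left, with no common direction. CREBBP, a coactivator of nuclear receptors, lay between 0 and 22.3 CPM, and as the reads of its gene may be split over several transcripts its value is uncertain. BRINP2, which retinoic acid induces in neurons, had at most 28 estimated counts in any otocyst.

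Genes of the dorsal otocyst, where Wnt activity is high, were set beside ALDH1A3 from a list of 13, of which 8 could be paired and tested. All 8 had a negative log2 fold change in DNBCAT embryos, with a median of -0.59 against -0.02 over all transcripts. As the median of all transcripts was itself below 0, a negative sign alone is common. SOHO-1, DLX5 and LMX1A also stand in the otic epithelium list, and SOHO-1, at -0.05 (SE 0.25), is not particular to the dorsal side and had no stable direction. The edgeR test called 0 of the 8, with 4 lower at an unadjusted p under 0.05 (2.74% of all transcripts), and DESeq2 called 4 lower (0.85% of all transcripts). These were WNT2B, MSX1, MSX2 and BAMBI. All 4 are also in the study's own list of genes that DNBCAT changed, chosen on these libraries. The count, the signs and the median of the 8 are therefore not independent evidence of a direction. In mCherry embryos 7 of the 8 had a negative value and the median was -0.09. There edgeR and DESeq2 called 0, with 1, WNT2B, lower at an unadjusted p under 0.05 by edgeR (1.75% of all transcripts).

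WNT2B, a Wnt ligand of the dorsal otocyst, was the dorsal gene with the lowest log2 fold change. It had 20.0, 19.7 and 18.3 CPM in the right otocysts of DNBCAT embryos 50, 51 and 52, and 43.8, 45.6 and 46.96 CPM in their left otocysts. The spread within each side was far smaller than the gap between them. The log2 fold change was -1.23 (SE 0.11), with an adjusted p of 0.718 by edgeR and 9.55e-15 by DESeq2. In mCherry embryos WNT2B had 39.6, 48.8 and 40.3 CPM on the right and 47.6, 51.2 and 52.1 CPM on the left. It was thus lower on the right in each mCherry embryo too, as in 13.1% of all transcripts (log2 fold change -0.23, SE 0.08, edgeR adjusted p = 0.960). The difference between the datasets was -0.997 (adjusted p = 0.670 by edgeR and 2.15e-06 by DESeq2, which called 0.197% of all transcripts lower there). The left otocysts of all 6 embryos lay between 43.8 and 52.1 CPM, whereas those of ALDH1A3 spread from 101 to 306 CPM.

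The homeobox genes MSX1 and MSX2 and the BMP inhibitor BAMBI had smaller differences than ALDH1A3. MSX1 had 123, 89.0 and 87.7 CPM in the right otocysts of DNBCAT embryos 50, 51 and 52, and 192, 174 and 140 CPM in their left otocysts (log2 fold change -0.76, SE 0.10). MSX2 had a log2 fold change of -0.70 (SE 0.09) and BAMBI one of -0.66 (SE 0.10) in the same embryos. The edgeR adjusted p of all 3 genes was 0.718, and DESeq2 gave 4.59e-09 for MSX1, 7.16e-07 for MSX2 and 4.53e-05 for BAMBI. BMP4, a ligand of the BMP family, had a log2 fold change of -0.52 (SE 0.22), which was -0.35 without embryo 51. The homeobox gene DLX5 had one of -0.28 (SE 0.14) and LMX1A one of -0.13 (SE 0.10). SOHO-1, a homeobox gene of the whole otic epithelium, had one of -0.05 (SE 0.25), whose sign turned when embryo 51 or 52 was left out.

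Of the Wnt feedback genes, AXIN2, a negative regulator that Wnt signalling induces, had 19.0, 15.9 and 27.7 CPM in the right otocysts of DNBCAT embryos 50, 51 and 52, and 35.5, 27.8 and 44.3 CPM in their left otocysts. Its right value was below its left one in each DNBCAT embryo, as in 16.5% of all transcripts (log2 fold change -0.79, SE 0.11, adjusted p = 0.718 by edgeR and 4.23e-05 by DESeq2). SFRP1, a secreted Wnt inhibitor, had a log2 fold change of -0.51 (SE 0.10) and NOTUM, an enzyme that inactivates Wnt ligands, one of -0.18 (SE 0.21). The edgeR test called 0 of these 3 genes, with 2 lower at an unadjusted p under 0.05 (2.74% of all transcripts), and DESeq2 called 2 lower (0.85% of all transcripts), AXIN2 and SFRP1, both of which are in the study's list as well. In mCherry embryos AXIN2 had 47.4, 33.6 and 28.5 CPM on the right and 49.4, 36.4 and 38.2 CPM on the left (log2 fold change -0.19). Its right value was thus below its left one in each mCherry embryo too, as in 13.1% of all transcripts.

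**Figure D3:**
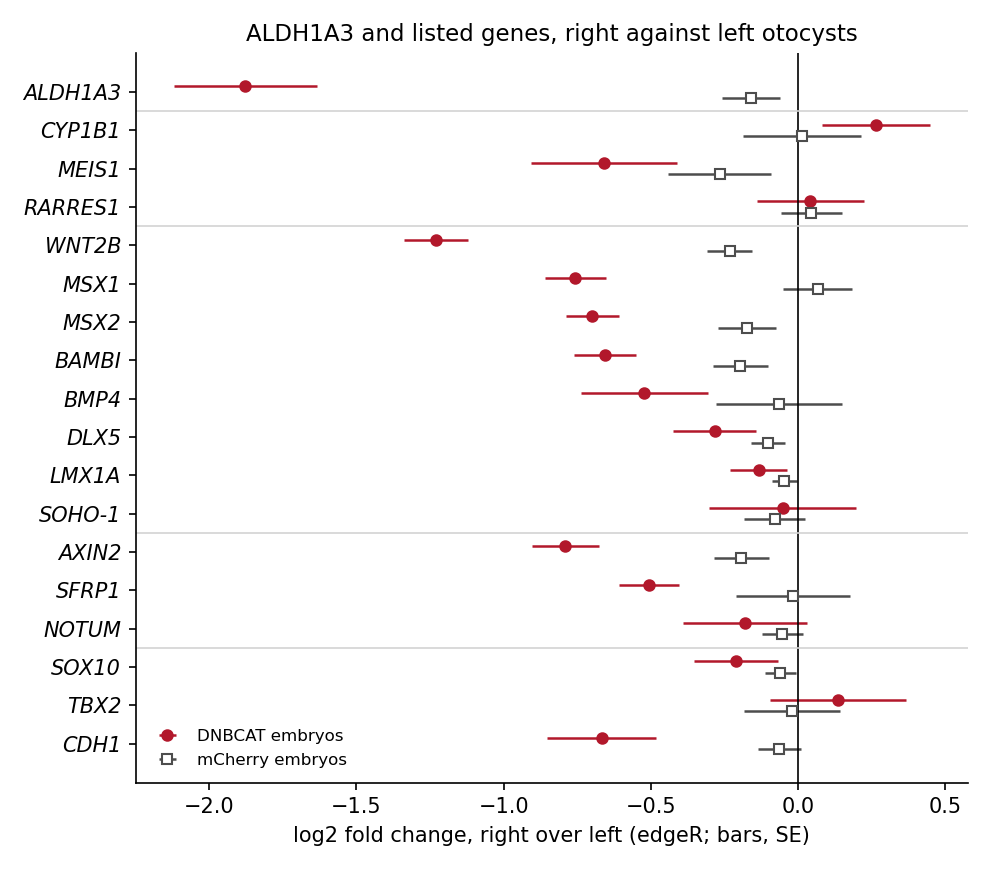
The log2 fold change of right over left otocysts from edgeR (horizontal axis; bars are the SE) in DNBCAT embryos (red circles) and mCherry embryos (open grey squares), 3 embryos each. ALDH1A3 is at the top, followed by paired genes of retinoid metabolism and response, dorsal otocyst genes, Wnt feedback genes and other otic epithelium markers; ALDH1A3 lies at -1.88 in DNBCAT embryos and WNT2B at -1.23, while both lie between -0.25 and 0 in mCherry embryos.

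Among the otic epithelium markers, CDH1, which encodes the adhesion protein E-cadherin, had 39.0, 15.6 and 43.8 CPM in the right otocysts of DNBCAT embryos 50, 51 and 52, and 55.2, 34.5 and 57.9 CPM in their left otocysts. The fitted log2 fold change of CDH1 was -0.67 (SE 0.19), with an adjusted p of 0.718 by edgeR and 0.0467 by DESeq2. Without embryo 51 the edgeR value was -0.45. CDH1 was the 1 gene of the 6 otic markers that DESeq2 called in DNBCAT embryos (0.85% of all transcripts were called lower), and the median of the 6 was -0.17. The 8 tested transcripts for neuroblasts and neurons were of 5 genes, as STMN1 had several. DESeq2 called 1 of the 8 lower in DNBCAT embryos (0.85% of all transcripts), that of NEUROD1, which is in the study's list too. By edgeR 0 were called, with 1 lower at an unadjusted p under 0.05 (2.74% of all transcripts). Neither tool called a gene of the neural crest and glia list in DNBCAT embryos. That list had 3 tested genes and 0 at an unadjusted p under 0.05 (6.2% of all transcripts).

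The levels of several named genes followed those of ALDH1A3 over the 12 otocysts. The search covered the 795 other tested transcripts with a symbol, most of which carry one because a list of the study held them. By Pearson's r of log2(CPM + 1) over the 12 otocysts, the 10 most like it were PRLH, SMPD3, RET, KCND2, NOXO1, PLXDC1, MFSD4A, COL9A3, HTR1E and PDZRN3, with r between 0.915 and 0.934. Among the 19297 other tested transcripts, with or without a symbol, these 10 ranked from 2 to 13. Of the 10, 6 are in the study's list of genes that DNBCAT changed, which holds 99 transcripts. That list is a source of the symbols, and ALDH1A3 was picked for its DNBCAT contrast. Both favour such a count, and the share of the 795 in the list was not computed, so nothing is read from it. The 12 points share embryos, sides and libraries, so r is only a description of likeness. Without the right otocyst of embryo 51, which was left out after the data had been seen, r of the 10 lay between 0.859 and 0.940.

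The genes of this group differed in their level and in how far the sides were apart. RET, the receptor tyrosine kinase for GDNF ligands, lay at 26.9 to 35.1 CPM in right DNBCAT otocysts and at 60.8 to 80.5 CPM in left DNBCAT otocysts, and at 66.8 to 121 CPM in right and 78.7 to 88.8 CPM in left mCherry otocysts. NOXO1 lay at 37.3 to 75.9 CPM in right DNBCAT otocysts and at 153 to 254 CPM in left DNBCAT otocysts, against 198 to 238 CPM in right and 209 to 284 CPM in left mCherry otocysts. HTR1E, a serotonin receptor, lay at 5.27 to 10.2 CPM in right and 21.3 to 31.9 CPM in left DNBCAT otocysts. COL9A3, a collagen chain, lay at 26.3 to 95.9 CPM in right and 103 to 137 CPM in left DNBCAT otocysts. SMPD3, a sphingomyelinase, lay at 8.67 to 18.6 CPM in right and 26.2 to 35.2 CPM in left DNBCAT otocysts. Its left DNBCAT otocysts were also under its left mCherry otocysts, at 44.1 to 54.3 CPM, as in 3.95% of all transcripts. For each gene of this paragraph the right DNBCAT otocysts lay under the left ones without overlap, as in 5% of all transcripts. These genes were picked for their likeness to ALDH1A3, which favours such a gap.

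By the 6 log2 ratios of right over left, taken here from CPM + 1, the 10 named genes most like ALDH1A3 were SLC1A7, KCND2, AMPH, SOCS5, NOXO1, APP, CHST1, HTR1E, MFSD13A and MSX1, with r between 0.946 and 0.986. Among the 19297 other tested transcripts, with or without a symbol, these 10 ranked from 5 to 47 by this r. KCND2, NOXO1 and HTR1E were the 3 genes found by both measures. Of the 10, 7 are in the study's list of 99, and for the same reasons nothing is read from that count. With only 6 points, 3 of each dataset, such values largely follow the gap between the datasets. Without embryo 51 they lay between 0.914 and 0.980. The size of the ratios differed: NOXO1 had log2 ratios of -1.73, -2.52 and -1.78 in DNBCAT embryos 50, 51 and 52, where ALDH1A3 had -1.30, -2.38 and -1.91 on the same scale. SLC1A7, a glutamate transporter, had -1.04, -1.76 and -1.21, and MSX1 had -0.63, -0.96 and -0.67.

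**Figure D4:**
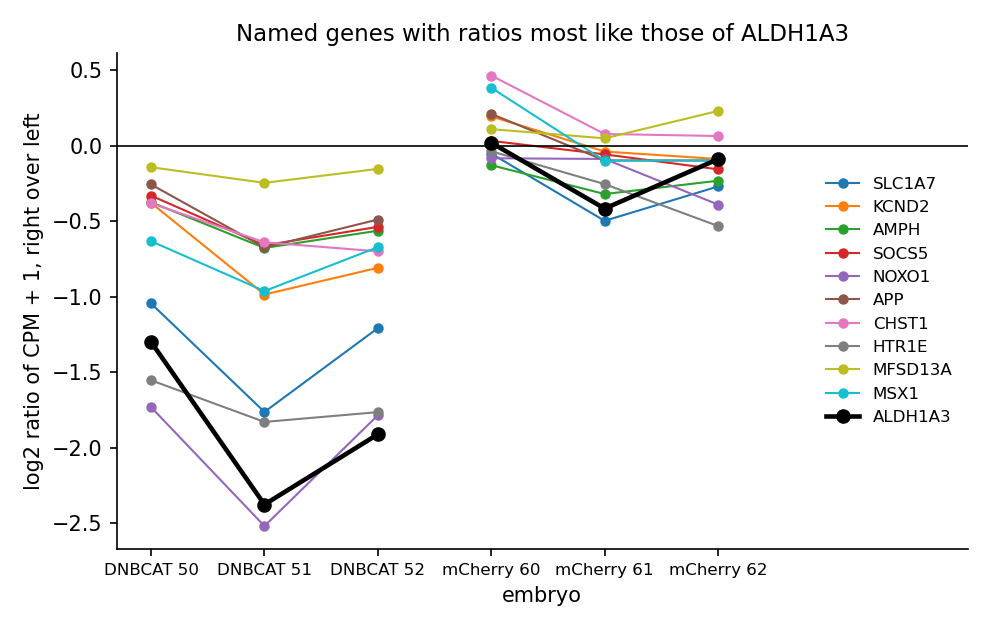
The log2 ratio of CPM + 1, right over left, in each of the 6 embryos (vertical axis) for ALDH1A3 (thick black line) and the 10 named genes with the highest Pearson's r to it (coloured lines, 1 point per embryo; lines join the embryos of a dataset for reading only, as replicates have no order). NOXO1 runs closest to ALDH1A3 in the DNBCAT embryos, and MFSD13A has the ratios closest to 0 there, from -0.25 to -0.14.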

How the data were processed

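Total RNA of single otocysts with a RNA integrity number of at least 9 was made into cDNA with the SMART-Seq v4 kit and into libraries with Nextera XT, and sequenced as paired ends of 43 bp. The authors quantified the reads with Kallisto against the chicken genome build GRCg6a and deposited an estimated count, which is not normalized and need not be whole, and a TPM value for each of 28756 transcripts in each of 12 otocysts. The deposited TPM values add up to a fixed sum per table, so transcripts that take a large share depress the rest. The authors compared right and left otocysts of the same embryo with a Wald test, whose fold changes and p-values were not used here; the gene list from it served only for symbols and to say which named genes it holds.

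Groups came from the sample labels (3 otocysts each), and all otocysts entered. ALDH1A3 and the gene lists were chosen with earlier results of these data known. Symbols came from gene lists in the study's supplementary tables, which paired 811 of the 28756 transcripts, so genes outside those lists could not be named. Named genes were ALDH1A3, the paired genes of the lists, and the 10 paired transcripts with the highest Pearson's r to ALDH1A3 over the 12 otocysts and over the 6 ratios. Lists covered retinoid metabolism and response, other aldehyde dehydrogenases, dorsal otocyst, otic epithelium, mesenchyme, neuroblasts and neurons, neural crest and glia, and Wnt feedback.

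Estimated counts were rounded, kept where 47% or more of the libraries in the comparison had 5 counts or more, scaled by TMM and fitted with the quasi-likelihood model of edgeR 4.0.16 in R 4.3.3, blocked on embryo, with two-sided p-values adjusted by Benjamini-Hochberg. CPM values are on the TMM scale of all 12 libraries. The SE of a log2 fold change is its size divided by the square root of F. Right and left otocysts of a number are from 1 embryo by their labels. Across transcripts, the deviation of a right otocyst from its group mean correlated with that of the left otocyst with r of 0.152 to 0.471, against -0.403 to 0.0579 between different embryos. DESeq2 1.42.0 (size factors, and Wald test), no filter, a filter of at least 10 counts in every library, no block, a joint fit of the 12 libraries, limma 3.58.1 on log2(TPM + 0.1) or log2(TPM + 1), and the omission of single embryos were alternatives. The fits were tested on simulated data. Nothing says that embryos of a dataset were from separate experiments, so p-values measure the spread between these embryos. Python 3.11.15 and pandas 2.3.3 made the tables.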

Additional observations from a re-analysis of the deposited data

Results flagged for a closer look

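The named genes CHST1 and MFSD13A had right to left ratios of opposite direction in the 2 datasets, with every DNBCAT embryo below 0 and every mCherry embryo above it. The mean log2 ratio of CHST1, a carbohydrate sulfotransferase, was -0.57 in DNBCAT embryos and 0.20 in mCherry embryos. CHST1 was scarce, at 2.39 to 6.74 CPM, and its log2 ratios in mCherry embryos 61 and 62 were only 0.08 and 0.06. The mean log2 ratio of MFSD13A was -0.18 in DNBCAT embryos and 0.13 in mCherry embryos. Of the transcripts counted in all 12 otocysts, 5.97% had all 3 DNBCAT ratios under all 3 mCherry ratios. The share with opposite signs was not computed. Both genes were picked for ratios that run with those of ALDH1A3, which favours such a split, and edgeR's test of the difference between the datasets, which called 0 of 19298 transcripts, called neither.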

How the results depend on the processing

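Under every alternative, the fold changes of ALDH1A3 in DNBCAT embryos and in mCherry embryos moved by less than the SD of the ratios between embryos. The difference between them moved by less than both SDs combined (square root of the sum of squares, 0.61). Leaving out 1 of 3 embryos can hardly move a mean by as much as their SD, so for those fits nothing is read from this. Leaving out 1 embryo at a time gave -2.18 to -1.61 in DNBCAT embryos, -0.25 to -0.03 in mCherry embryos and -2.02 to -1.45 for the difference. Without the replicate block the 3 values were -1.71, -0.17 and -1.54, and with log2(TPM + 0.1) they were -2.17, -0.20 and -1.97. On the scale of log2(TPM + 1) they were -2.04, -0.20 and -1.85. The median of all transcripts moved to -0.23 in DNBCAT embryos and -0.19 for the difference on that scale. With log2(TPM + 0.1) this median was -0.30 in DNBCAT embryos.

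The number of transcripts called was 0 with edgeR and stayed at 0 without the block and without each embryo. DESeq2's Wald test called 453 in DNBCAT embryos, 84 in mCherry embryos and 64 for the difference. With log2(TPM + 1), limma called 37 in DNBCAT embryos and 1 for the difference, and with log2(TPM + 0.1) it called 1 for the difference, a transcript with no symbol paired. With at least 10 counts in every library edgeR called 1 in DNBCAT embryos, that of LDHA, named here after its value was seen. The cause of these differences between tools was not tested.

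The alternatives were followed for part of the other named genes, leaving out NEUROD1, SOX10, TBX2, CREBBP and the mesenchyme markers, among others. Of the values followed, 506 kept their direction and their side of the threshold. A further 21 passed it under an alternative alone and 14 turned their direction, none of these 14 past the threshold in either fit. In DNBCAT embryos CYP1B1 was at -0.023 with TPM + 1 and TPM + 0.1, and RARRES1 at -0.24 with TPM + 1 and -0.25 with TPM + 0.1. In mCherry embryos CYP1B1 was at -0.027 with TPM + 1, -0.026 with TPM + 0.1 and -0.0033 without the block. Leaving out 1 embryo at a time gave -0.17 to 0.23 for RARRES1, -0.38 to 0.20 for SOHO-1, -0.44 to 0.012 for NOTUM and -0.90 to 3.24 for HOXA3 in DNBCAT embryos. In mCherry embryos it gave -0.25 to 0.20 for CYP1B1 and -0.093 to 0.15 for MSX1.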
